A study of Drosophila melanogaster with 8 samples.

Results

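The centromere-side end of the X chromosome was examined for heterochromatin protein 1a (HP1a) in Drosophila melanogaster embryos. The members are the HP1a-enriched regions whose midpoint lay in the last 2 Mb of the assembled X sequence, from 20422828 to 22422827 (FlyBase release 5), called the X window here. The rule that picks them uses position alone, and this stretch of X was taken up with earlier results of these data known. Of 5697 regions in the authors' combined set, 73 were members. Of 5406, 5127, 4903 and 4260 regions in replicates 1 to 4, the members numbered 66, 65, 62 and 51, between 1.20% and 1.27% of each list. The study mapped HP1a by chromatin immunoprecipitation and sequencing (ChIP-seq) with the antibody wa191 in 4 ChIP samples, set against 4 input samples of genomic DNA. The source was whole embryos of Oregon-R (Oregon-R-modENCODE), genotype wild type, labelled 14 to 16 h, with no treatment, mutation or other stage to compare. The 4 ChIP samples have 1 region list each, and the combined set is a further list made for the replicates together.

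HP1a binds histone H3 methylated at lysine 9 through its chromodomain and is a structural protein of constitutive heterochromatin, the compact, repeat-rich chromatin around centromeres. On each chromosome arm the assembled sequence runs from gene-rich euchromatin toward this pericentric heterochromatin, and HP1a is known to thicken along the way. The centromere side of the X assembly also carries flamenco, a source locus of piRNAs (small RNAs that silence transposons). In the RefSeq gene table of Release 6 the locus (lncRNA:flam) follows DIP1 and lncRNA:CR44712 and precedes CG40813, with su(f) farther toward the centromere. No annotation or genome of release 5 was used here, so no member was assigned to a gene and no sequence is shown.

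The lists give a start, an end and a score for each region, and no reads, so the depth behind each value is unknown. The covered share, the main measure here, is the percentage of bases of a stretch that lie in enriched regions. Bases to which reads cannot be placed count as uncovered. Replicates 1 and 2 carry the neighbouring experiment numbers 1914 and 1916, and replicates 3 and 4 carry 2026 and 2027. The labels do not say that the replicates came from separate embryo collections, so the spread between them may be technical. No 2 replicate lists shared an identical member.

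The X window was more densely covered by HP1a than the rest of X, and much less than the same end of 2L, 2R and 3L. Its covered share was 11.5%, 14.5%, 11.9% and 10.8% in replicates 1 to 4, against 6.55%, 7.57%, 7.05% and 5.59% for the 20.4 Mb of the rest of X. The ranges of the 2 parts did not overlap. The ratio was 1.75, 1.92, 1.68 and 1.93 fold in replicates 1 to 4, with a mean of 1.82 ± 0.123 (SD, n = 4). Among only the higher-scoring 50% of regions the geometric mean ratio was 3.03 fold, against 1.82 fold for the full lists, and it split by pair. Its log2 values for replicates 1 to 4 were 1.03, 1.08, 1.93 and 2.35. With a window of 1 Mb in place of 2 Mb the geometric mean was 2.81 fold. In every replicate the X window ranked below the windows of 2R (57.0% to 66.1%), 3L (55.9% to 64.5%) and 2L (31.1% to 39.0%) and above that of 3R (4.25% to 6.75%). Its share was 0.369, 0.373, 0.348 and 0.303 fold that of the 2L window in replicates 1 to 4 (mean 0.348 ± 0.0320, SD, n = 4). It was 0.201, 0.225, 0.186 and 0.163 fold that of 2R (0.194 ± 0.0260) and 0.205, 0.225, 0.194 and 0.167 fold that of 3L (0.198 ± 0.0242). Against 3R it was 2.03, 2.15, 2.46 and 2.54 fold (2.29 ± 0.244). In each of these 4 ratios replicates 1 and 2 lay on one side of replicates 3 and 4. The higher-scoring 50% of regions gave a geometric mean of 4.04 fold over 3R, with log2 values of 1.48, 1.66, 2.47 and 2.44 in replicates 1 to 4. No replicate went against these directions. Each window is set by the end of its arm's assembled sequence, and how far each reaches into heterochromatin was not examined. With 4 replicates an exact permutation test that flips signs cannot give less than p = 0.125 (two-sided), and each of these ratios in the full lists had that p, or 0.139 after Benjamini-Hochberg adjustment over 10 comparisons. Dense coverage inside the X window was known from these data when it was taken up, so the tests are no independent support.

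**Figure D1:**
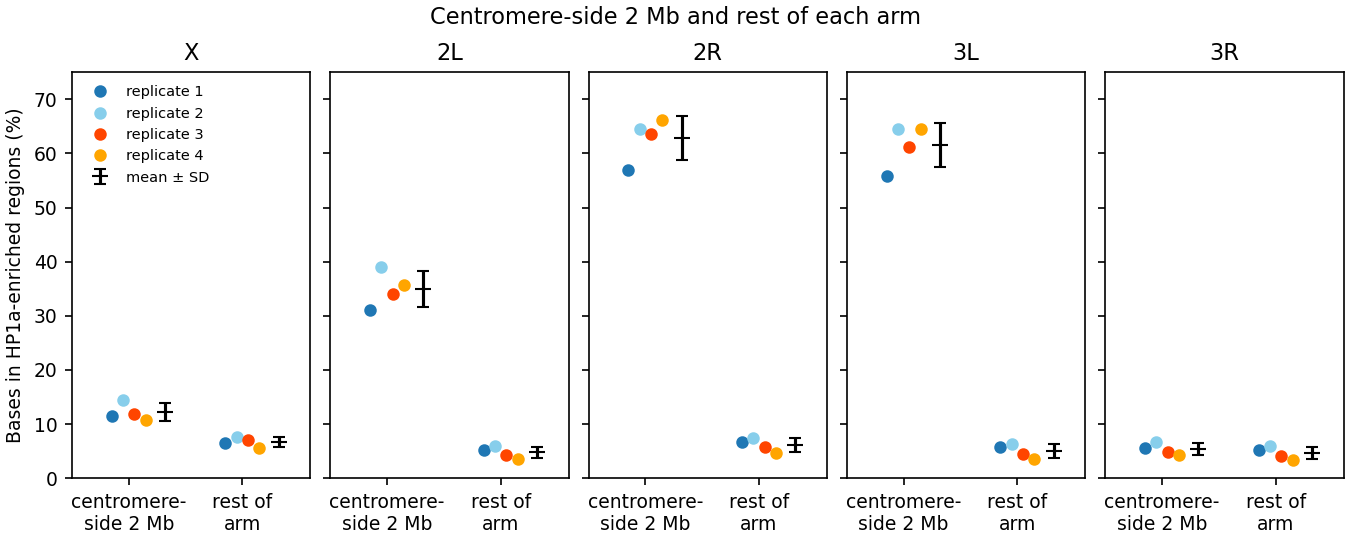
Percentage of bases in HP1a-enriched regions (y axis) in the centromere-side 2 Mb and the rest of each of the 5 arms, with 1 point per replicate and the mean ± SD beside them. On X the window points lie between 10.8% and 14.5% and the rest-of-X points between 5.59% and 7.57%, while the windows of 2L, 2R and 3L lie higher.

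Coverage inside the X window was uneven and did not climb steadily toward the centromere. The centromere-side 1 Mb was covered over 18.1%, 23.5%, 16.7% and 16.7% in replicates 1 to 4, and the arm-side 1 Mb over 4.86%, 5.57%, 7.01% and 4.91%. The ratio was 3.43 ± 0.774 fold (SD, n = 4), with values of 3.72, 4.21, 2.38 and 3.39, so the centromere side was higher in all 4 (p = 0.125 in the exact permutation test, adjusted p = 0.139). The X window was taken up with dense coverage in its centromere-side 1 Mb already known from these data. The test is therefore no independent support for this direction. With only the higher-scoring 50% of regions kept, the mean log2 ratio was 3.67, against 1.75 for the full lists. The centromere-side 1 Mb contained a cluster of 4 neighbouring 100 kb windows, from 21500001 to 21900000, which were covered over 39.9% ± 13.5, 64.7% ± 7.83, 35.2% ± 3.61 and 30.0% ± 5.08 in order toward the centromere (SD, n = 4). Replicates 1 to 4 covered 41.7%, 58.3%, 29.8% and 29.9% of the window that starts at 21500001, so replicates 1 and 2 were the higher pair. These were the 4 highest of the 19 full 100 kb windows, and each had a higher mean than the highest of 204 such windows on the rest of X, 23.8%. The other 15 windows had means between 0% and 12.0%. In all, 10 of the 19 windows lay below the median of the rest of X, 5.51%.

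**Figure D2:**
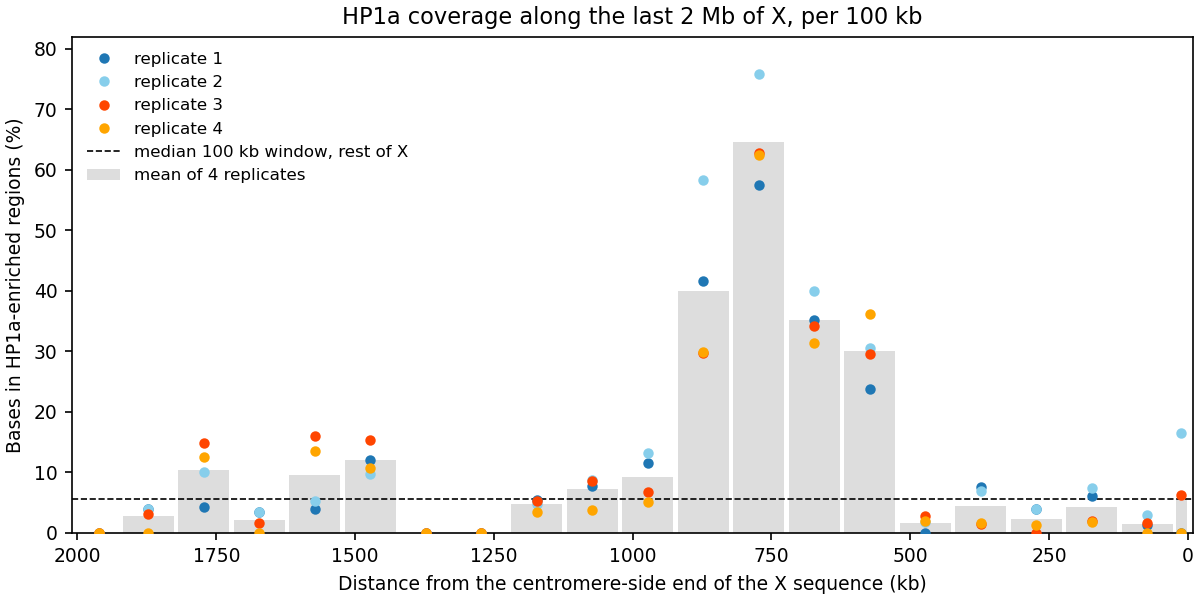
Percentage of bases in HP1a-enriched regions (y axis) in 100 kb windows along the X window, by distance in kb from the centromere-side end of the X sequence (x axis). Points are replicates, grey bars their mean, and the dashed line is the median window of the rest of X, 5.51%; the outermost bins at each end are shorter than 100 kb. The 4 tall bars reach means of 30.0% to 64.7%, and the bins nearer the end fall back below the dashed line apart from the shortened last one.

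Split at the edges of that cluster, a division chosen from these values and therefore given without a test, the X window fell into 3 segments. The 4 dense windows, 400 kb, held 69.8% ± 3.40 of all covered bases of the X window and were covered 6.37 ± 0.718 fold as densely as the rest of X (SD, n = 4). The arm-side segment, from 20422828 to 21500000, was covered over 5.38% ± 0.924, which was 0.740, 0.724, 0.942 and 0.815 fold the rest of X in replicates 1 to 4. The segment at the very end, 523 kb from 21900001 to 22422827, was covered over 3.64%, 5.15%, 1.77% and 1.30% in replicates 1 to 4. That was 0.556, 0.680, 0.250 and 0.232 fold the rest of X. The 523 kb next to the end of the assembled sequence thus held less called HP1a than the arm behind it in each replicate. It held 7, 9, 6 and 4 regions in replicates 1 to 4 and 11 of the combined set.

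The 3 neighbouring 100 kb windows with the highest mean, from 21500001 to 21800000, are called the dense stretch. They were covered over 44.8%, 58.0%, 42.2% and 41.2% in replicates 1 to 4, and held 58.6%, 59.9%, 53.4% and 57.3% of the covered bases of the X window. Replicate 2 was the highest in both, and the other 3 lay close together in the first. Without the dense stretch the covered share of the X window was 5.59%, 6.85%, 6.49% and 5.41% in replicates 1 to 4, which was 0.853, 0.905, 0.921 and 0.968 fold the rest of X. The direction of the comparison with the rest of X was thus reversed, at a mean log2 ratio of -0.13 against 0.86 with the stretch. In the combined set the share without the stretch was 10.9%, against 10.7% for the rest of X. Since the stretch was chosen as the densest, leaving it out lowers the ratio by construction, while the rest of X kept its own densest windows. The lowered ratio is therefore given without a test.

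In the combined set the dense stretch consisted of 2 bodies separated by an empty interval. Joined across gaps of up to 20 kb, a distance chosen after seeing the data, the combined set gave a body of 188 kb from 21500355 to 21688295 with 19 regions and one of 88.4 kb from 21758509 to 21846919 with 9 regions. The larger body was covered over 52.8%, 71.4%, 49.2% and 49.2% in replicates 1 to 4. The smaller one, which runs past the stretch, was covered over 64.3%, 77.5%, 69.8% and 74.5%. Between them, from 21688296 to 21758508, lay 70.2 kb without a called base in any of the 5 lists. The larger body held 42.8% ± 2.93 and the smaller 26.2% ± 3.03 of the covered bases of the X window (SD, n = 4).

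**Figure D3:**
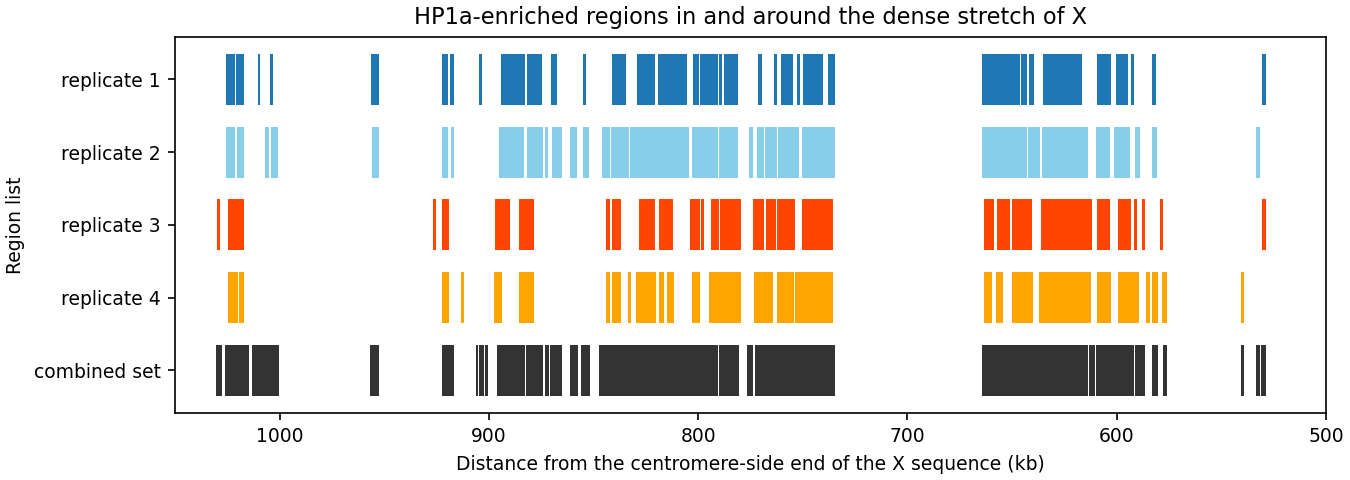
Enriched regions drawn to scale in and around the dense stretch, by distance in kb from the centromere-side end of the X sequence (x axis), with 1 row per list (replicates 1 to 4 and the combined set). In the combined set the regions fall into 2 bodies, 188 kb and 88.4 kb long, with 70.2 kb between them that no list covers. Replicates 3 and 4 called none of the combined-set regions between 21549543 and 21571296, which breaks the larger body in those lists.

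The widest member of the combined set lay in the larger body. It spanned 42506 bp from 21589764 to 21632269 with a score of 1.23, and was covered over 78.3%, 94.7%, 57.6% and 56.4% by 7, 4, 6 and 7 separate regions in replicates 1 to 4. The authors' combined set thus reports as 1 region what each replicate list splits. A region of 8473 bp from 21581268 to 21589740 with a score of 1.63 ended just before it, and 9647 bp from 21632609 to 21642255 with 1.25 followed it. The first was covered over 77.9%, 99.5%, 52.8% and 54.1%, and the second over 80.0%, 91.4%, 93.3% and 96.5%. Coverage of the first was higher in replicates 1 and 2 than in 3 and 4, and coverage of the second was lowest in replicate 1.

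Toward the centromere the larger body ended in regions of 22305 bp from 21649876 to 21672180 (score 1.01) and 16066 bp from 21672230 to 21688295 (score 1.30). The 16066 bp were covered over 78.0%, 97.2%, 93.4% and 93.2% in replicates 1 to 4, and the 22305 bp over 46.3%, 85.0%, 79.0% and 89.2%. Replicate 1 was the lowest in both. Ahead of them 2951 bp from 21646173 to 21649123 (score 0.68) were covered over 63.6% in replicate 2, 4.30% in replicate 3 and 0% in the others.

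On its arm side the larger body began with 3908 bp from 21500355 to 21504262, which had a score of 1.45 and was covered over 69.8%, 73.7%, 84.2% and 81.1% in replicates 1 to 4. The neighbouring 1943 bp from 21504364 to 21506306 (score 0.45) were called in replicates 1 and 2 only. Then came 4 short regions of the combined set between 21516415 and 21522137. They were 1153, 1356, 1001 and 1082 bp wide, with scores of 0.42 to 0.60. No replicate called 3 of them, and the one from 21518149 to 21519504 was called in replicate 1 alone.

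The next part of the larger body divided the replicates by pair. Replicates 1 to 4 covered 84.8%, 92.6%, 67.1% and 39.1% of the 13157 bp from 21526680 to 21539836 (score 1.45). Of the 7980 bp from 21540670 to 21548649 (score 1.24) they covered 88.1%, 96.9%, 47.2% and 43.0%. All 4 replicates called both regions, with less of each covered in replicates 3 and 4. Farther on, 5368 bp from 21552197 to 21557564 (score 0.82) and 4609 bp from 21566688 to 21571296 (score 0.63) were called in replicates 1 and 2 only. Replicate 2 alone called 1979 bp from 21549543 to 21551521 (score 0.66) and 3490 bp from 21561641 to 21565130 (score 0.64). The 5780 bp from 21575164 to 21580943 (score 0.91) were covered over 67.7%, 35.1% and 34.7% in replicates 2, 3 and 4, and not called in replicate 1.

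The SD of covered share over the 4 replicates was 5.79 percentage points in the smaller body and 10.6 in the larger one. The value of 10.6 rests on replicate 2, at 71.4%. Replicates 1, 3 and 4 lay between 49.2% and 52.8% in the larger body and between 64.3% and 74.5% in the smaller one. Which body varied less thus depended on replicate 2. The first region of the smaller body, 27521 bp from 21758509 to 21786029, had a score of 1.81. It was covered over 83.2%, 98.0%, 76.2% and 63.0% in replicates 1 to 4. The next, 23263 bp from 21786059 to 21809321, had a score of 1.77 and was covered over 78.7%, 95.4%, 96.7% and 100% (a mean of 92.7%). These had ranks 2 and 3 by width in the combined set. In replicates 1 to 4 the widest member of each list lay at the second of them, at 18302, 21917, 24013 and 24986 bp. Beyond 21800000, the member of rank 5 by width, 18280 bp from 21812881 to 21831160 with a score of 1.30, was covered over 76.2%, 78.9%, 69.0% and 76.9%.

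Outside the dense stretch the members were shorter and had lower scores than inside it. The stretch was chosen for its covered share, which rises with region width, so the difference in width follows at least in part from that choice. The rest of X kept its own densest windows. Comparisons inside and outside the stretch are therefore given without a test. The median width of the members outside it was 1859, 1993, 1883 and 2099 bp in replicates 1 to 4, against 2049, 2077, 2051 and 2025 bp on the rest of X. Inside the stretch the median was 2786, 4965, 4667 and 3947 bp. Over the whole X window the median width was 1.16 ± 0.104 fold that of the rest of X (SD, n = 4), with values of 1.00, 1.22, 1.21 and 1.19 in replicates 1 to 4 (exact permutation p = 0.125, adjusted p = 0.139). In the higher-scoring 50% of regions the geometric mean was 1.92 fold, with log2 values of 0.71, 1.55, 0.78 and 0.73 in replicates 1 to 4. With regions joined across gaps of up to 1 kb the log2 values were 0.60, 0.05, -0.02 and 0.61, so the size of the ratio in a replicate, and its direction in replicate 3, depended on these settings. Counted as regions per Mb, the X window had 33, 32.5, 31 and 25.5 in replicates 1 to 4, against 27.3, 29.5, 29.7 and 24.0 on the rest of X, a ratio of 1.10 ± 0.0745 (p = 0.125 in the same exact permutation test). With regions joined across gaps of up to 1 kb the direction was reversed, to a mean log2 ratio of -0.09 against 0.14.

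Scores, compared only within a list since no source used here states their scale, split by replicate pair. The median score of the members minus that of the rest of X was -0.0812, -0.0805, 0.296 and 0.272 in replicates 1 to 4. The mean difference of 0.102 ± 0.211 (SD, n = 4) was smaller than this spread (exact permutation p = 0.5, adjusted p = 0.5). It was 0.163 without replicate 1 or without replicate 2, 0.0369 without replicate 3 and 0.0449 without replicate 4. For the last 1 Mb of X the difference was 0.0470, 0.0562, 0.649 and 0.432 in replicates 1 to 4, above 0 in each (mean 0.296, exact permutation p = 0.125). Ranked within its whole list, the median member of the dense stretch stood at percentile 53.2, 50.1, 70.2 and 60.3 by score in replicates 1 to 4. The median member outside it stood at 36.1, 35.2, 27.2 and 34.1, and the median region of the rest of X at 49.4, 44.3, 32.9 and 31.4. Both lay in the lower part of each list, and the members outside the stretch lay below the rest of X in replicates 1 to 3 and above it in replicate 4. Since the stretch was chosen as the densest and the rest of X was left uncut, these percentiles do not compare like parts.

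Fewer than 1 in 3 of the combined-set members were called in all 4 replicates. Of the 73 combined-set members, 21 had an overlap of 1 bp or more with each of the 4 replicate lists. That is 28.8%, with a 95% interval of 19.7% to 40.0% by Wilson's method, which covers only counting error. The same held for 47.1% of all combined-set regions and for 38.5% of those on the rest of X. Neighbouring members, some as close as 23 bp, were counted as if independent, and the whole list includes the members. The interval is thus no test against these shares. A further 13 members were found in 3 replicates, 18 in 2, 10 in 1 and 11 in none. The 11 found in none made up 15.1% (8.63% to 25.0%), against 13.0% of the whole list and 17.9% on the rest of X. Because the combined list stands for these same replicates, the counts are no independent check of the calls.

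Of the 21 members of 5 kb and wider, 15 (71.4%) were found in all 4 replicates, against 77.8% of such regions in the whole list and 41.9% on the rest of X. No member of that width was missing from all replicates, against 0.146% in the whole list and 2.70% on the rest of X. Of the 29 members under 2 kb, 1 (3.45%) was found in all 4, against 3.12% in the whole list and 3.43% on the rest of X. In none were 10 of them (34.5%), against 36.8% and 39.6%. Within these width classes the members' shares were thus near those of the whole list. A wide region also has more bases that can be overlapped. The 21 widest members held 72.0% of the combined-set bases of the X window. Members found in all 4 replicates had a median width of 8473 bp and a median score of 1.24, and those found in none 1082 bp and 0.65.

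**Figure D4:**
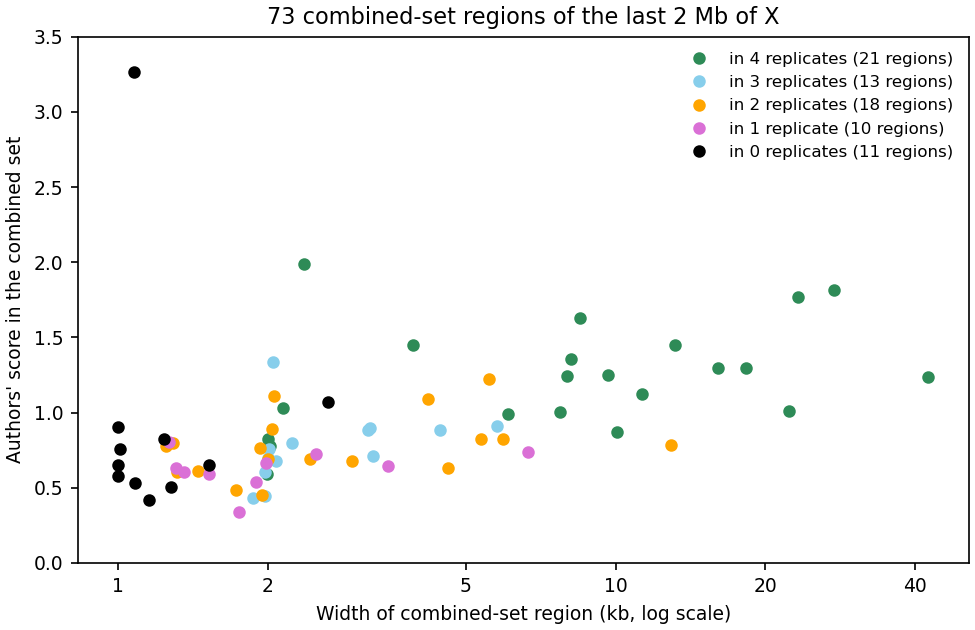
Width in kb (x axis, log scale) and authors' score in the combined set (y axis) of the 73 combined-set members, coloured by the number of replicates that overlap them. Members in 4 replicates are mostly wide, those in none lie between 1001 and 2644 bp, and a single point of 1076 bp with a score of 3.27 and no replicate stands above all others.

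The highest score of the X window in the combined set belonged to a region that no replicate called. It spanned 1076 bp from 20834162 to 20835237 with a score of 3.27, rank 6 by score among all 5697 regions and rank 3 among those on X. The nearest called region was 10.6, 6.96, 4.88 and 5.15 kb away in replicates 1 to 4. No source used here states how the combined set was made. The next highest, 2366 bp from 20924196 to 20926561 with a score of 1.99, had rank 314 in the whole list and was covered over 97.1%, 98.4%, 96.2% and 89.2% in replicates 1 to 4. Its scores there were 2.01, 1.99, 1.08 and 0.659, each on the scale of its own list, so they are not compared between lists. The median scores of the rest of X in those lists were 1.29, 1.10, 0.760 and 0.833.

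The remaining members of the 10 highest combined scores outside the dense stretch and the smaller body were 2. Replicates 1 to 4 covered 93.5%, 85.2%, 17.0% and 20.9% of the 8144 bp from 22083000 to 22091143 (score 1.36), with no overlap between the pairs. The 2053 bp from 20563994 to 20566046 (score 1.33) were covered over 98.5%, 97.5% and 89.0% in replicates 1 to 3 and not called in replicate 4. In the single lists, the highest score of the X window was 2.19 from 21758600 to 21776552 in replicate 1 and 2.51 from 21759213 to 21764375 in replicate 3, both in the first region of the smaller body. In replicate 4 it was 3.91, for 1365 bp from 21589405 to 21590769, at the border of the 8473 and 42506 bp regions, where replicate 2 had overlapping regions with scores of up to 1.72 and replicates 1 and 3 had none. In replicate 2 it was 2.63, for a region at the last bases of X from 22422232, which as deposited ran 827 bp past the end of the sequence. Replicate 3 overlapped it with a score of 0.887.

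The Jaccard index, the bases shared by 2 lists divided by the bases in either, had a mean of 0.559 over the 6 replicate pairs in the X window and of 0.564 on the rest of X. Replicates 1 and 2 had an index of 0.662, replicates 3 and 4 one of 0.668, and the 4 pairs that mix them had 0.460 to 0.536. Since the index rises with the share of sequence covered, parts of unlike coverage cannot be set against each other. Outside the dense stretch, where the X window was covered over 6.09% ± 0.695, against 6.69% ± 0.841 on the rest of X (SD, n = 4), the mean index was 0.454, against 0.564 on the rest of X. It was lower there in each of the 6 replicate pairs. The stretch left out was chosen as the densest, while the rest of X kept its own densest windows. The lower index may therefore follow from that choice. It is given without a test for this reason and because pairs share replicates. For replicates 1 and 2 the index outside the stretch was 0.567 against 0.678 on the rest of X, and for replicates 3 and 4 it was 0.533 against 0.627. Within the stretch the mean was 0.649. Of the bases of the X window that any replicate called, 33.6% (124 kb) were called in all 4 and 22.7% (84.0 kb) in 1. The combined set held 100% of the bases called in all 4 and 75.1% of those called in 1 replicate. It also held 2.50% of the bases that no replicate called.

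**Figure D5:**
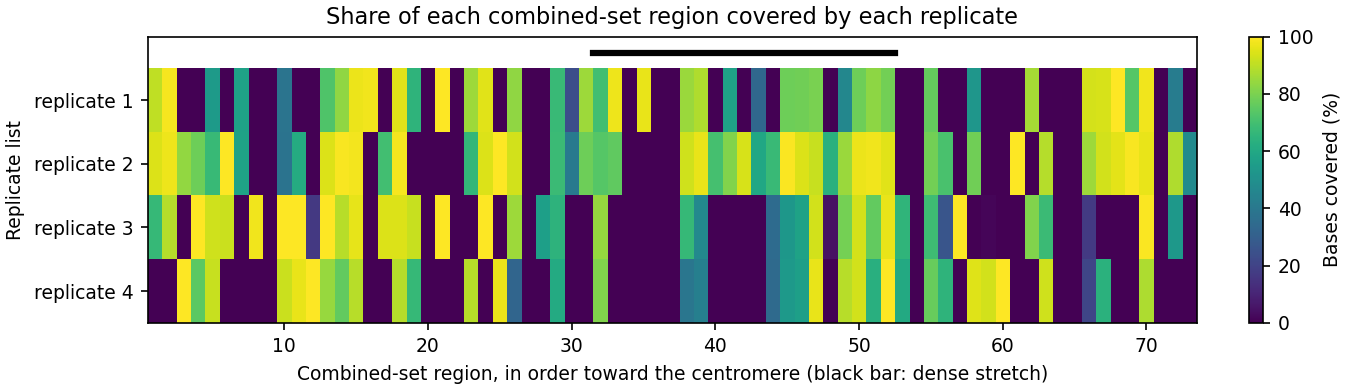
Percentage of bases of each of the 73 combined-set members (x axis, in order toward the centromere) covered by each replicate (rows), with the dense stretch marked by a black bar. In 20 members both replicates 1 and 2 covered more than both replicates 3 and 4, and in 10 the reverse held, shares near those of the whole list.

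By pair, 8 of 73 members were found in replicates 1 and 2 only, against 9.02% of the whole list (514 of 5697) and 8.23% on the rest of X (70 of 851). In replicates 3 and 4 only were 3 members (4.11%), against 3.12% and 4.35%. The 20 members covered more by both replicates 1 and 2 made up 27.4%, against 33.1% of the whole list and 26.6% on the rest of X. The 10 covered more by both replicates 3 and 4 made up 13.7%, against 11.6% of the whole list and 94 of 851 regions on the rest of X. The split by pair among the members was thus near that of the lists as a whole. Those covered less in both replicates 1 and 2 than in both 3 and 4 included the 10043 bp from 20840419 to 20850461 (score 0.87). Replicates 1 to 4 covered 38.5%, 38.0%, 100% and 92.2% of it. The opposite was seen at 12906 bp from 21409498 to 21422403 (score 0.78), of which replicates 1 and 2 covered 23.8% and 41.1%, while replicates 3 and 4 called none of it. Its neighbour, 11312 bp from 21396798 to 21408109 (score 1.12), was covered evenly, over 67.9%, 68.1%, 64.8% and 61.3%. These 3 were the only members over 10 kb outside the dense stretch and the smaller body. They were named after their values were seen.

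Long parts of the X window held no combined-set region. The 3 longest were 183 kb from 20994331 to 21177177, 104 kb from 20422828 to 20527140 at the arm-side edge, and 97.7 kb from 22115522 to 22213253. No replicate region had its midpoint in any of them. The 100 kb windows with the lowest mean share were 21000001 to 21100000 and 21100001 to 21200000, both at 0% in all 4 replicates, and 22300001 to 22400000 at 1.52% ± 1.24 (SD, n = 4). The first combined-set member inside the edge of the X window was 2014 bp from 20527141 to 20529154 (score 0.75), and the last region outside it 1326 bp from 20359889 to 20361214 (score 0.75). Conversely, 1 of 65, 7 of 62 and 3 of 51 members in replicates 2, 3 and 4 overlapped no combined-set region. Each member of replicate 1 overlapped one. The same share over all regions of these lists is not given, so whether these counts are usual for a list is unknown.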

How the data were processed

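Per the labels' protocols, embryos were crosslinked in 1.8% formaldehyde with heptane before immunoprecipitation, and every ChIP sample had its own input as control. The submitters' processing notes name Bowtie 0.12.7. Per the file headers, coordinates are those of FlyBase release 5. Neither the caller and its threshold nor the making of the combined set is stated in the sources used here. The authors deposited 1 score per region, of unstated scale, used here only within a list.

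Regions were placed by midpoint, and coverage was counted in bases. Between 2 and 9 regions per list ran past the end of a sequence and were clipped. Ratios were formed within each replicate, and tested by exact two-sided sign-flip permutation with Benjamini-Hochberg adjustment over 10 comparisons. With 4 replicates this test cannot pass 0.05. Python 3.11.15, NumPy 2.4.6, SciPy 1.17.1 and Matplotlib 3.10.9 were used, and the code was tested on simulated lists.

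Members, lists and tests were chosen with earlier results of these data known. Regions named were all combined-set regions of the dense stretch, the 10 highest-scoring and 5 widest of the X window, the 3 highest and lowest 100 kb windows and the 3 longest gaps. Others were named after their values were seen. Alternatives were the higher-scoring 50% of each list, joining across 1 kb, 1 Mb windows, the rest of X without its telomere-side 200 kb, the X window without its dense stretch, reciprocal overlap of 50%, and each replicate left out. Genes and sequences at the regions were not analysed here.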

Additional observations from a re-analysis of the deposited data

Results flagged for a closer look

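Among 77 values examined in the 4 replicates, 6 had 1 replicate far from the other 3 by Dixon's test. For independent, normally distributed values chance gives about 1 in 20, here 3.85. Many of the 77 values come from overlapping stretches and some hold exact zeros, so 3.85 is not a chance count for them. The log2 ratio of the median width in the X window to that of the rest of X was 0.00070 in replicate 1 and 0.25 to 0.29 in the others. Replicate 4 covered 0% of the combined-set region from 20563994 to 20566046, and the other replicates 89.0% to 98.5%. Replicate 1 covered 96.6% of the region from 21518149 to 21519504, and the others 0%. Replicate 2 covered 70.6% of the region from 21549543 to 21551521 and 93.9% of that from 21561641 to 21565130, and the others 0% of both. It also covered 63.6% of the region from 21646173 to 21649123, against 0% to 4.30% in the others. For a region called in 1 list alone this gap follows from the call. The cause of these differences was not tested.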

How the results depend on the processing

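Over 13 results and 121 alternatives, 108 kept the direction of the mean or stayed close to the reported value, 7 changed direction and 6 moved. No alternative passed the threshold, which 4 replicates cannot reach. Where all 4 replicates had the same direction, leaving out 1 replicate or keeping only 1 pair of replicates could not reverse it. Many of the kept directions were thus fixed in advance, and their count says nothing about stability. Leaving out the dense stretch turned the mean log2 ratio of the X window to the rest of X to -0.13 by covered bases and -0.39 by regions per Mb. Without the 4 densest windows, added after seeing the data, these were -0.55 and -0.57. Joining across 1 kb turned the ratio of regions per Mb to -0.095. The score difference was -0.0708 in the higher-scoring 50% and -0.0809 in replicates 1 and 2 alone, against 0.284 in replicates 3 and 4 alone and 0.296 for the last 1 Mb. Leaving out 1 replicate gave 0.0369 to 0.163.

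The dense stretch was covered over 38.5% in the higher-scoring 50%. The Jaccard index was 0.662 and 0.668 within the replicate pairs. Members found in all 4 replicates numbered 11 of 25 in the higher-scoring 50%, 9 of 73 under reciprocal overlap of 50% and 36 of 73 when only replicates 1 and 2 were required. Leaving out 1 replicate in turn gave log2 ratios of 0.83 to 0.90 for the X window over the rest of X and 1.64 to 1.91 for its centromere-side over its arm-side 1 Mb, 42.8% to 48.4% for the dense stretch and 22 to 26 shared members. For none of these counts of shared members is the share over the whole list or the rest of X given. They describe the X window alone. No paired analysis was possible because the input samples, which share the replicate numbers of the ChIP samples, have no list of their own here. This concerns ChIP against input, whereas the tested ratios compare stretches of the genome inside 1 ChIP replicate at a time. Depth is unknown, so how far an uncalled region fell short of a call cannot be given.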
